A study of Mus musculus with 6 samples.

Results

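The genes described here are 10 genes of myeloid cells, the white blood cells that include monocytes, macrophages and granulocytes: *Lyz2*, *Lyz1*, *Ptprc*, *Csf1r*, *Cd68*, *Cd14*, *Tyrobp*, *Fcer1g*, *Laptm5* and *Aif1*. *Ptprc* is expressed by all nucleated blood cells, lymphocytes included, and *Laptm5*, *Tyrobp* and *Fcer1g* are also expressed by some lymphocytes. The 10 genes were chosen by symbol from the 23284 genes listed for each sample, after the order of the samples in such genes had been seen in these same values. Their levels and their order over the samples are therefore given as a description. All 10 were listed in every sample, and all 10 had a mean over the 6 samples above the minimum of 0.1 FPKM set for the test between the days. FPKM is the number of sequenced fragments per kilobase of transcript for a fixed total of mapped fragments, so that levels of different genes can be compared per length.

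The RNA came from osteoblasts (OBs), the bone-forming cells, of male *Col2.3*-ECFP mice aged 12–16 weeks. In these mice a fragment of the type I collagen promoter drives a cyan fluorescent protein (ECFP) in OBs and in other cells in which that promoter is active. A collagen sponge loaded with bone morphogenetic protein 2 (BMP-2), which induces bone outside the skeleton, was placed under the skin of the back, and ECFP+ cells were sorted from the induced bone on day 10 (3 biological replicates) or day 14 (3 biological replicates). Every group carried the transgene and the BMP-2 implant, and the sort gated out cells stained for CD45, the surface antigen of white blood cells, and dead cells stained with 7AAD. Collagenase was applied 1 time to bone of day 10 but 2 times to bone of day 14, and the day and the digestion cannot be told apart. The titles give day 14 for all 3 later samples, whereas the descriptions give day 14, day 15 and day 16 for replicates 1, 2 and 3. The labels do not say how many mice gave each replicate.

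Myeloid cells arise from blood stem cells in the marrow and enter tissues where a wound or an implanted material is being remodelled. Macrophages depend on the receptor for colony-stimulating factor 1 (CSF1), digest what they engulf in lysosomes and report engaged surface receptors through small adaptor proteins that carry an ITAM, a motif that recruits the kinase SYK. In bone they are neighbours of OBs, and the bone-resorbing osteoclasts come from the same lineage.

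The files held 16646 to 19698 genes above 0, with the fewest in day 14 replicate 2, and the values of genes with few reads placed the depth at about 4500000 to 7720000 reads per sample. Of the genes tested, 18.2% were listed at 0 in day 14 replicate 2, compared with 4.70% to 13.4% in the other samples. *Col1a1*, the type I collagen gene behind the reporter, was at 14151 to 34157 FPKM, and all 10 OB markers (*Runx2*, *Sp7*, *Alpl*, *Ibsp* and others) were above 0 in every sample. The defining markers of the labelled cell type were thus present in all 6 samples. Cartilage genes were uneven over the samples: *Col2a1*, the main collagen of cartilage, reached 688 FPKM in day 14 replicate 2, whereas the other samples of that day gave 12.1 and 8.75 FPKM.

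The 10 genes followed nearly the same order over the implants. Day 14 replicate 3 held the highest value of 9 of the 10 (16.8% of the 19526 genes tested were highest there), and the exception was *Ptprc*, which was highest in day 14 replicate 1. Day 14 replicate 2 held the lowest value of 8 of the 10 (17.5% of the genes tested), and the exceptions were *Cd14* and *Aif1*, which were lowest in day 10 replicate 1. Both held for 7 of the 10, compared with 2.59% of the genes tested. The members were chosen on this order, so nothing is read from these shares. The median rank ran from 1 in day 14 replicate 3 through 2 in day 14 replicate 1, 3 in day 10 replicate 2, 4 in day 10 replicate 3 and 5 in day 10 replicate 1 to 6 in day 14 replicate 2. Both extremes were thus samples titled day 14, and the day 10 samples lay between them.

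**Figure D1:**
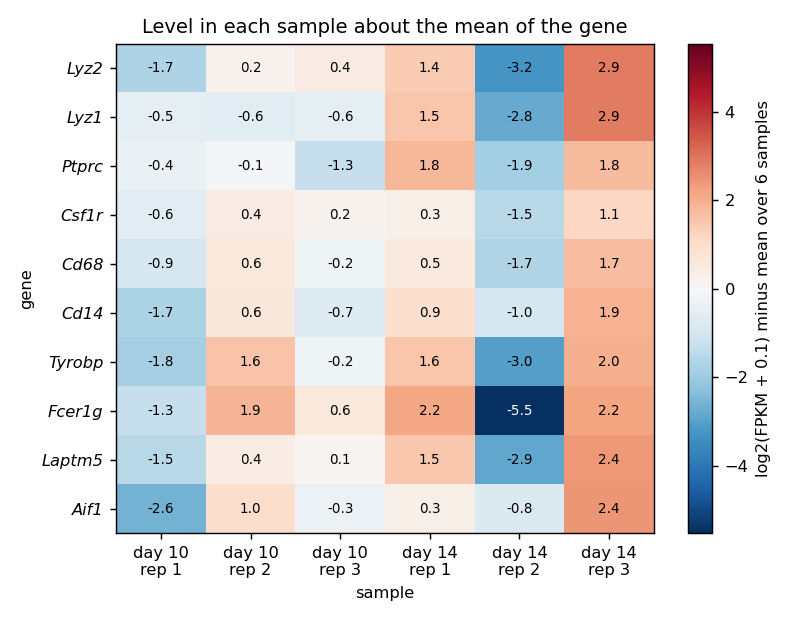
Level of each of the 10 myeloid genes (rows) in each sample (columns), as log2(FPKM + 0.1) minus the mean of that gene over the 6 samples, with red above and blue below that mean. The column of day 14 replicate 3 is above the mean for every gene and that of day 14 replicate 2 is below it for every gene.

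Summed over the 10 genes, the level was 36.7, 164 and 124 FPKM in replicates 1, 2 and 3 of day 10 and 267, 20.5 and 631 FPKM in those of day 14. *Lyz2* was the largest part of the sum in every sample but day 14 replicate 2, so the mean over genes of log2(FPKM + 0.1) was also taken. It was 0.73, 2.64 and 1.84 on day 10 and 3.24, -0.39 and 4.17 on day 14, in the same order of samples. Over the genes, the median log2 ratio of the highest to the lowest sample was 5.03. After the mean of each gene was removed, the mean of each sample took up 79.4% of the sum of squares of the 10 genes. In bulk RNA, more cells of a type and more RNA per cell cannot be told apart, and this holds for every level below.

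**Figure D2:**
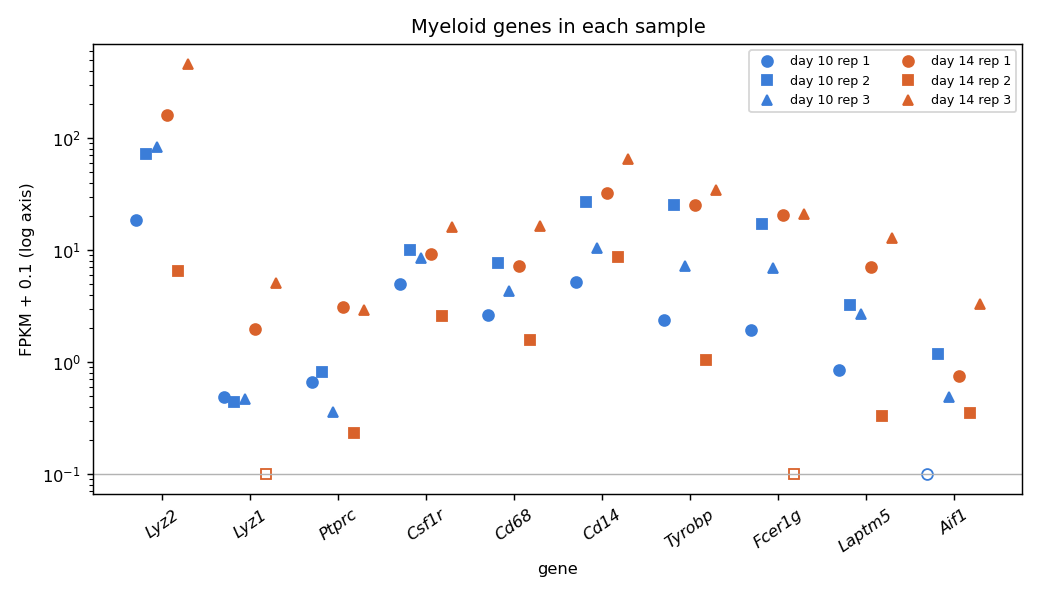
FPKM of each myeloid gene in each sample (y axis: FPKM + 0.1, log axis), with day 10 in blue and day 14 in orange, and replicates 1, 2 and 3 as circles, squares and triangles. Open symbols mark values listed at 0, and for no gene do the 3 orange and the 3 blue symbols separate.

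*Lyz2* encodes lysozyme M, an enzyme that cleaves bacterial cell walls and is made in quantity by macrophages and granulocytes. It is at chr10:117277331-117282321 on the minus strand (GENCODE vM21, mm10). It was the most abundant of the 10 genes in every sample but day 14 replicate 2, with 18.5, 71.9 and 83.3 FPKM in replicates 1, 2 and 3 of day 10 and 160, 6.35 and 454 FPKM in those of day 14. The highest sample was 71.5-fold above the lowest, and both are titled day 14, although their descriptions give day 16 and day 15. Among all genes of a sample, *Lyz2* ranked 118th by FPKM in day 14 replicate 3 and 5971st in day 14 replicate 2. In the latter, *Cd14* stood above it at 136% of its FPKM.

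*Lyz1* encodes lysozyme P, the form of the Paneth cells of the gut, and lies next to *Lyz2* at chr10:117287797-117292868, also on the minus strand. Its FPKM was 0.386, 0.344 and 0.364 on day 10 and 1.86, 0 and 4.95 on day 14. As a share of *Lyz2*, it was 2.09%, 0.478% and 0.437% on day 10 and 1.16%, 0% and 1.09% on day 14. It thus stayed at a small percentage of its neighbour in all samples. Its low values rest on few reads, an estimated 1.99 to 2.99 per sample on day 10 and 36.8 in day 14 replicate 3.

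The 2 lysozyme genes are near copies, which bears on how far their FPKM can be told apart. Their transcripts are 1316 bases (*Lyz2*) and 1263 bases (*Lyz1*) long with 4 exons each and were identical at 96% of the 1262 aligned bases, and their coding sequences differed at 22 of 444 bases. Of the 1189 stretches of 75 bases (the read length) in the *Lyz1* transcript, 74 (6.22%) occurred unchanged in that of *Lyz2*. Most reads without sequencing errors thus differ by at least 1 base between the genes, but a read with an error can be assigned to the wrong copy, and the *Lyz1* values are uncertain for that reason. The first coding exons show this, although they differ more than the rest, with 89.7% of bases identical compared with 95% over the coding sequences. They are at chr10:117282107-117282242 for *Lyz2* and chr10:117292703-117292838 for *Lyz1* (minus strand, 136 bases, GENCODE vM21), with the 14 bases that differ in capitals.
Lyz2: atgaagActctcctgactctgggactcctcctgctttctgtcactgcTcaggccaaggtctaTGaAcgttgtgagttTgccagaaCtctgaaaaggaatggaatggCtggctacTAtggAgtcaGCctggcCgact
Lyz1: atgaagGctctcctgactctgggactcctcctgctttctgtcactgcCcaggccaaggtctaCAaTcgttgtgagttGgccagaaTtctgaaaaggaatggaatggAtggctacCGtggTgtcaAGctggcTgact

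Of the 10 genes, 7 had a promoter window in the RefSeq table (GRCm38.p6), and the 250 bases before the start were searched on both strands for GAGGAA and AGGAAGT, letters found in many binding sites of ETS factors such as PU.1, which is needed for myeloid cells to form. The motifs share the letters AGGAA and can overlap. GAGGAA was present in 4 genes (*Aif1*, *Cd68*, *Laptm5*, *Ptprc*) and in 23.3% of all 32851 windows, and AGGAAGT was present in 3 genes (*Lyz1*, *Lyz2*, *Ptprc*) and in 7.69% of all windows. Either was present in 6 of the 7 genes, all but *Fcer1g*, and in 27.3% of all windows. A member counted if any of its windows held the motif, whereas the shares are of single windows, so these are unlike measures. These matches describe letters and are not evidence of binding. The windows of *Lyz2* (chr10:117282322-117282522), *Lyz1* (chr10:117292869-117293118) and *Cd68* (chr11:69666171-69666420) are shown because the lysozyme genes hold the same match at the same place, 100 to 94 bases before the RefSeq start, in sequences identical at 80.6% of the aligned bases, and because *Cd68* moved with them while holding the other motif. All 3 are read on the minus strand with the motif in capitals (its reverse complement in the lysozyme genes), and only bases before both the RefSeq and the GENCODE start are given.
Lyz2: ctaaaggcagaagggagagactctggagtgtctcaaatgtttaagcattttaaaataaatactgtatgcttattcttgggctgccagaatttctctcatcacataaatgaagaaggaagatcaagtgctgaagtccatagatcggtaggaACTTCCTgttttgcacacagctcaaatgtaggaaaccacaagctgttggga
Lyz1: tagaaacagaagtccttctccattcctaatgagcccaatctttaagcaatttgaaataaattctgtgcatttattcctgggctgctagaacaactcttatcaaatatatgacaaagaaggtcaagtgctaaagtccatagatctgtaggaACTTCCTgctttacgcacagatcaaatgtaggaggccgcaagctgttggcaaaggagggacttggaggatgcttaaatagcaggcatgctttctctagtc
Cd68: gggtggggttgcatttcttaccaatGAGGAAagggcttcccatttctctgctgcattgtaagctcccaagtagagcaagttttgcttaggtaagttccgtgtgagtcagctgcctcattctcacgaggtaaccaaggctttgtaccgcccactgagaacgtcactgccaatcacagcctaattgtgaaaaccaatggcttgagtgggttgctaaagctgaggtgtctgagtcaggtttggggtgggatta

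*Ptprc* encodes CD45, the phosphatase found on all nucleated blood cells and the antigen by which such cells were gated out of the sort. It is at chr1:138062861-138175708 on the minus strand. Its RNA was low but present in every sample, with 0.567, 0.721 and 0.259 FPKM for the 3 replicates of day 10, against 2.99, 0.134 and 2.81 FPKM for those of day 14. Day 14 replicates 1 and 3 stood above all other samples and differed little from each other, while replicate 2 was the lowest, 21.0-fold below replicate 3. The estimated reads behind these values ran from 3.85 in day 14 replicate 2 to 95.7 in day 14 replicate 3. In that last sample *Ptprc* was at 0.618% of the FPKM of *Lyz2*, and in day 10 replicate 1 it was at 3.06%, so the gene of the gated antigen and the lysozyme gene did not keep a fixed ratio.

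*Laptm5* encodes a lysosomal membrane protein of blood cells and is at chr4:130913125-130936141 on the plus strand. Its FPKM was 0.745, 3.15 and 2.58 on day 10 and 6.89, 0.231 and 12.8 on day 14. This is the order of *Lyz2* except that day 10 replicates 2 and 3 changed places, and those samples were close in both genes. Of the 9 other members, *Laptm5* kept the steadiest ratio to *Lyz2*, at 2.81% to 4.38% of its FPKM over the 6 samples, although *Lyz2* itself spanned 71.5-fold. The value in day 14 replicate 2 rests on an estimated 3.27 reads.

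The receptors among the 10 genes are *Csf1r*, the receptor for CSF1 and interleukin 34 on which macrophages and osteoclast precursors depend, and *Cd14*, which hands bacterial lipopolysaccharide to Toll-like receptor 4. *Csf1r* is at chr18:61100598-61132149 (plus strand) and *Cd14* at chr18:36725067-36726798 (minus strand). *Csf1r* was at 4.84, 9.91 and 8.40 FPKM on day 10, against 9.12, 2.48 and 16.0 FPKM on day 14. It spanned the smallest range of the 10 genes, with a log2 ratio of 2.65 between the highest and the lowest sample. Its exons overlap those of *Hmgxb3* on the opposite strand, and since the library kit does not mark strand, reads of the 2 genes in that overlap cannot be told apart.

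*Cd14* was at 5.06, 26.8 and 10.4 FPKM on day 10, against 32.1, 8.63 and 65.4 FPKM on day 14. It was second in level to *Lyz2* in the other 5 samples and above it in day 14 replicate 2, and it departed from the common order in that its lowest sample was day 10 replicate 1, with day 14 replicate 2 next. In day 14 replicate 2 its log2 level lay 1.45 above what the gene and sample means gave, and of the 10 genes *Aif1* alone lay further above, at 1.65, on an estimated 1.01 reads. *Cd14* is not restricted to myeloid cells.

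The ITAM adaptors *Tyrobp* (DAP12, the partner of TREM2 and related receptors) and *Fcer1g* (the gamma chain of Fc receptors) are at chr7:30413760-30417585 on the plus strand and at chr1:171229572-171234365 on the minus strand. *Tyrobp* was at 2.28, 25.4 and 7.17 FPKM on day 10, against 25.0, 0.941 and 34.0 FPKM on day 14. *Fcer1g* was at 1.81, 17.0 and 6.84 FPKM on day 10, and for day 14 replicates 1 and 3 gave 20.4 and 20.7 FPKM while replicate 2 was listed at 0. Both adaptors were thus relatively high in day 10 replicate 2, close to the level of day 14 replicate 1. *Tyrobp* was at 35.3% of the FPKM of *Lyz2* there, compared with 7.48% to 15.6% in the other 5 samples, and *Fcer1g* was at 23.6%, compared with 4.57% to 12.7% in the other samples in which it was above 0. *Cd14* was also high relative to *Lyz2* in day 10 replicate 2, at 37.2%. It was at 12.4% to 27.4% in the other samples, except for 136% in day 14 replicate 2. *Lyz1*, *Ptprc*, *Csf1r* and *Cd68* were instead higher relative to *Lyz2* in day 10 replicate 1 than in day 10 replicate 2. Day 14 replicates 1 and 3 hardly differed in *Fcer1g*, whereas *Lyz2* was at 160 and 454 FPKM in them.

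*Cd68*, a glycoprotein of the lysosomes of macrophages, is at chr11:69664213-69666153 on the minus strand. It was at 2.55, 7.49 and 4.17 FPKM on day 10, against 7.11, 1.47 and 16.4 FPKM on day 14, so day 10 replicate 2 and day 14 replicate 1 were alike and the extremes were 11.2-fold apart. *Aif1* encodes IBA1, an actin-binding protein of macrophages and microglia, and is at chr17:35170991-35176068 on the minus strand. By its mean over the samples it was the weakest of the 10 genes, at 0, 1.09 and 0.385 FPKM on day 10, against 0.656, 0.253 and 3.18 FPKM on day 14. With an estimated 15.0 reads in day 14 replicate 3 and no more than 4.04 in any other sample, its order among the lower samples is within counting error.

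Pearson's r between the log2 levels of 2 members over the 6 samples was 0.585 to 0.994 over the 45 pairs, with a median of 0.872. These are descriptions of genes chosen for a shared order, in which all points share their libraries.

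The day comparison asked whether these genes differed between OBs of day 10 and day 14. It gave no call for any of the 10: 0 passed at an adjusted p under 0.05 and 0 at an unadjusted p under 0.05 (limma on log2(FPKM + 0.1), adjusted over all genes tested), compared with 0.0154% and 10.0% of the 19526 genes tested. For 0 of the 10 did the samples of the 2 days separate, compared with 14.3% of the genes tested. As the rule used all 6 samples, these counts are given beside the background and nothing is read from them. The mean log2 level was higher on day 14 for 8 genes and lower for 2 (*Csf1r* and *Fcer1g*), with a median log2 fold change of 0.68, compared with -0.04 over all genes tested.

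No difference between the days passed the test against the spread within them. *Lyz2* was at 57.9 ± 34.6 FPKM on day 10 and 207 ± 228 FPKM on day 14 (SD, n = 3 each), with a log2 fold change of 0.69 ± 1.37 (SE) and an adjusted p of 0.922 from limma. *Cd14* came nearest to a call, at 14.1 ± 11.3 and 35.4 ± 28.5 FPKM (SD, n = 3 each) with a log2 fold change of 1.22 ± 0.77 (SE) and an adjusted p of 0.657 from limma. *Csf1r* was at 7.71 ± 2.60 and 9.22 ± 6.78 FPKM (SD, n = 3 each), with a log2 fold change of -0.04 ± 0.60 (SE). The median SE of the 10 genes was 1.15 on the log2 scale, compared with 0.45 over all genes tested. The members were chosen on an order with both extremes on day 14, which by itself gives a large spread within that day, so nothing is read from this.

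The day difference depended on which samples were kept. Day 14 replicate 2 was lowest in 8 of the 10 genes by the order they were chosen on, so the direction without it was fixed by that choice, and the values without it are a description. Without day 14 replicate 2, all 10 genes were higher on day 14, the median log2 fold change was 2.02 (0.02 over all genes), and 8 of the 10 passed at an unadjusted p under 0.05 in limma, compared with 13% of the 19674 genes then tested. *Csf1r* and *Aif1* were the exceptions. At an adjusted p under 0.05 from limma, 0 of the 10 and 0.386% of the genes passed, with *Lyz1* the nearest (log2 fold change 2.76 ± 0.54 SE, adjusted p = 0.0814 from limma). In 6 of the 10 the remaining day 14 samples both lay above all day 10 samples, compared with 15.3% of the genes. Without day 14 replicate 3 instead, the median log2 fold change was -0.37 and 3 of the 10 were higher on day 14. That median was 0.04 without day 10 replicate 1, 0.19 without day 14 replicate 1, and 1.06 and 0.85 without replicates 2 and 3 of day 10.

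**Figure D3:**
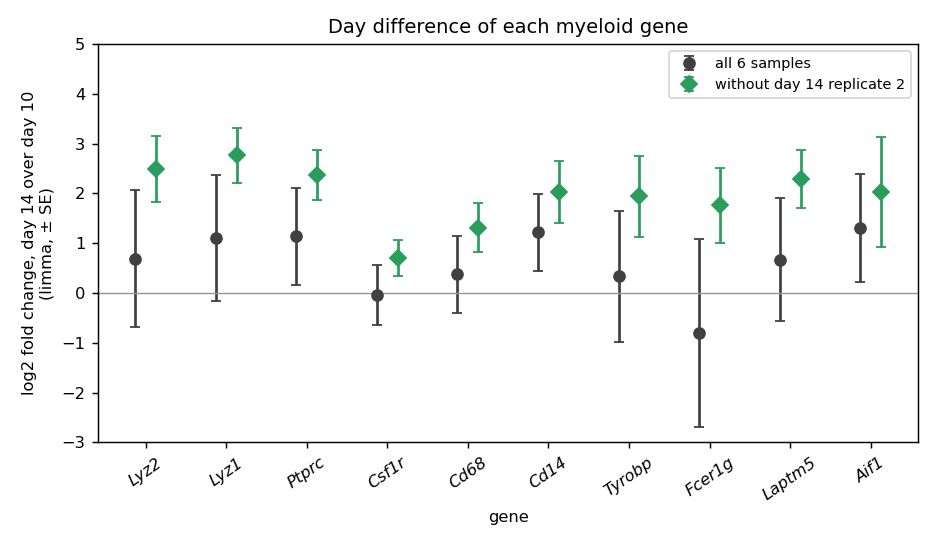
Log2 fold change of each myeloid gene, day 14 over day 10, from limma on log2(FPKM + 0.1), with all 6 samples (grey circles) and without day 14 replicate 2 (green diamonds), where bars are ± SE. With all samples 8 genes lie above 0 and *Csf1r* and *Fcer1g* below it, and without that sample all 10 lie above 0.

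Marker lists set the 10 genes among other genes of the same and of other cells. None of the lists holds a member, and with all samples limma called 0 genes of any list at an adjusted p under 0.05. Of 25 further monocyte and macrophage genes, 13 were highest in day 14 replicate 3, 18 were lowest in day 14 replicate 2 and 12 were both. The complement genes *C1qa* and *C1qb*, typical of tissue macrophages, were at 11.8 and 40.4 FPKM in day 14 replicate 3 and were listed at 0 in replicate 2. *Ctss*, a cathepsin of antigen-presenting cells, was at 3.02, 10.1 and 13.8 FPKM on day 10, against 27.4, 0.881 and 82.5 FPKM on day 14. By contrast *Lgals3* (galectin 3), which is not restricted to macrophages, was highest in day 14 replicate 2 at 333 FPKM. Another exception was *Mertk*, which was highest in day 10 replicate 2 at 12.5 FPKM and lowest in day 14 replicate 3 at 1.99 FPKM. In day 14 replicate 2, 9 of the 25 genes were listed at 0, compared with 0 to 2 in the other samples. Of all genes tested, 18.2% were at 0 in that replicate, the highest share of the 6 samples. The median log2 fold change between the days was 0.17 for this list, with -0.04 over all genes tested as above.

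Of 20 pan-leukocyte genes, 13 were highest in day 14 replicate 3, 12 were lowest in day 14 replicate 2 and 8 were both, and the median log2 fold change between the days was 0.52. *Itgb2*, the beta chain of the leukocyte integrins, and *Coro1a*, an actin regulator of white blood cells, were at 8.74 and 7.23 FPKM in day 14 replicate 3 and at 0.254 and 0.121 FPKM in replicate 2. *Cd44*, *Lsp1* and *Arhgdib* were the most abundant of this list, and they did not have their lowest value in that replicate. For *Arhgdib* the log2 fold change between the days was 1.02 ± 0.30 (SE) with an adjusted p of 0.340 from limma.

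The signalling partners of the members were mixed. Of 24 genes of ITAM signalling, 7 were highest in day 14 replicate 3, 13 were lowest in day 14 replicate 2 and 5 were both, with a median log2 fold change of -0.02 between the days. *Fcgr2b*, an inhibitory Fc receptor, was at 3.85, 5.01 and 5.90 FPKM on day 10, against 17.2, 2.39 and 18.9 FPKM on day 14, whereas the kinase *Lyn* was at 6.14 to 9.17 FPKM in all samples. The adaptor-dependent receptor *Trem2* was at 0.497 to 2.41 FPKM. Of 12 myeloid transcription factors, 2 were highest in day 14 replicate 3 and 2 were lowest in replicate 2, with a median log2 fold change of 0.32. *Sfpi1*, the gene of PU.1, was at 0.181, 2.26 and 0.684 FPKM on day 10, against 1.17, 0.150 and 2.14 FPKM on day 14, while *Cebpb*, which many cell types express, was at 173 to 259 FPKM.

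The ligands of *Csf1r* did not share its order. *Csf1* was at 17.5, 39.2 and 32.0 FPKM on day 10, against 62.6, 44.6 and 43.7 FPKM on day 14, and *Il34* was at 1.76, 4.93 and 5.86 FPKM on day 10, against 18.0, 8.80 and 13.6 FPKM on day 14. For both, every day 14 sample lay above every day 10 sample (7.59% of the genes tested did so), day 14 replicate 2 included, and 5 of the 11 genes of the colony-stimulating factor list did so. The median log2 fold change of that list was 0.45. The log2 fold change was 0.82 ± 0.30 (SE) for *Csf1* and 1.77 ± 0.45 (SE) for *Il34*, with adjusted p-values of 0.416 and 0.309 from limma, so neither was called. Likewise *Lbp*, the plasma protein that brings lipopolysaccharide to CD14, was at 54.2 ± 6.96 FPKM on day 10 and 112 ± 8.42 FPKM on day 14 (SD, n = 3 each), with a log2 fold change of 1.05 ± 0.16 (SE) and an adjusted p of 0.164 from limma. It was 1 of the 20 genes of the CD14 and Toll-like receptor list whose days did not overlap, and of that list 3 were both highest in day 14 replicate 3 and lowest in day 14 replicate 2, with a median log2 fold change of 0.19.

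Lysosomal genes, which macrophages express strongly but all cells use, shared the upper end of the order but not the lower. Of 15 such genes, 10 were highest in day 14 replicate 3, 0 were lowest in day 14 replicate 2, 10 had every day 14 sample above every day 10 sample and 11 passed at an unadjusted p under 0.05 in limma in the direction of day 14 (5.60% of the genes tested had this). The median log2 fold change was 0.50. *Ctsd* (cathepsin D) was at 374 to 411 FPKM on day 10, against 548, 469 and 569 FPKM on day 14, and *Lamp1* was at 307 to 351 and 396 to 463 FPKM. *Ctsk*, the collagen-cleaving cathepsin of osteoclasts, was at 403 to 425 FPKM on day 10 and 574 to 614 FPKM on day 14 (adjusted p = 0.375 from limma), and day 14 replicate 2 lay within the range of its day. The osteoclast genes were at mixed levels. *Acp5*, the gene of the phosphatase TRAP, was at 18.3 to 37.7 FPKM, *Mmp9* at 7.73 to 35.9 FPKM and *Itgb3* at 3.48 to 7.82 FPKM, whereas *Calcr*, the calcitonin receptor, was at 0.0393 to 0.338 FPKM. Of the 13 osteoclast genes 1 was both highest in day 14 replicate 3 and lowest in day 14 replicate 2 (median log2 fold change -0.05).

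Other white blood cells moved partly with the 10 genes. Of 14 genes of dendritic cells and MHC class II, which presents antigen to T cells, 7 were highest in day 14 replicate 3, 7 were lowest in day 14 replicate 2 and 3 were both highest in day 14 replicate 3 and lowest in day 14 replicate 2. Their summed level was 83.0 to 132 FPKM on day 10 and 511, 89.7 and 671 FPKM in replicates 1, 2 and 3 of day 14. *Cd74*, the invariant chain of MHC class II, was at 5.42, 27.9 and 20.6 FPKM on day 10, against 158, 5.81 and 228 FPKM on day 14. Its value in day 14 replicate 2 was within the range of day 10, as it was for *H2-Ab1* at 22.4 FPKM. The other MHC class II chains of the list were lowest in that sample, *H2-Aa* at 2.74 FPKM against 3.55 to 11.0 on day 10 and *H2-Eb1* at 0.922 FPKM against 2.81 to 5.59. Of the dendritic cell genes, *Flt3* and *Itgax* did not exceed 0.317 and 0.974 FPKM, *Zbtb46* was at 2.00 to 3.59 FPKM in all samples, and *Ccr7* and *Cd209a* reached 4.72 and 2.22 FPKM in day 14 replicate 3. The median log2 fold change of the list was 0.82.

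The most abundant neutrophil genes followed another order. *S100a8*, the subunit of calprotectin that neutrophils hold in quantity, was at 3.33, 166 and 2.79 FPKM on day 10, against 26.1, 0 and 22.3 FPKM on day 14, and its partner *S100a9* was at 3.64, 92.1 and 4.58 FPKM on day 10, against 11.7, 0 and 28.8 FPKM on day 14. The highest sample of these 2 genes was thus day 10 replicate 2, the sample in which the adaptors *Tyrobp* and *Fcer1g*, and also *Cd14*, were high relative to *Lyz2*. *Retnlg*, next in abundance, was highest in day 14 replicate 1 at 14.8 FPKM, compared with 9.54 FPKM in day 10 replicate 2, and *Lcn2* was highest in day 14 replicate 3 at 8.77 FPKM, compared with 7.89 FPKM. The 14 neutrophil genes summed to 14.3, 283 and 11.4 FPKM on day 10 and to 62.4, 3.94 and 74.4 FPKM on day 14, 1 of them was highest in day 14 replicate 3 and 5 were lowest in day 14 replicate 2, with a median log2 fold change of -0.39. Of genes of immature neutrophils, *Elane*, *Mpo* and *Ltf* did not exceed 0.721 FPKM, *Camp* reached 3.13 FPKM in day 10 replicate 1, and *Prtn3* was at 0 to 0.715 FPKM on day 10 and at 1.33 to 1.72 FPKM on day 14 (adjusted p = 0.340 from limma). The part of neutrophils or of any other listed cell type in the levels of the 10 genes was not tested.

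Lymphocyte, mast cell and blood vessel genes were low. The 14 T and NK cell genes summed to 4.21 to 15.0 FPKM, with the highest sums in day 14 replicates 1 and 3 and the lowest in replicate 2. There 8 of the 14 were listed at 0 (among them *Cd3e*, *Cd3d* and *Cd3g*), beside 18.2% of all genes tested. The 10 B and plasma cell genes summed to 1.52 to 8.19 FPKM, the 10 mast cell and basophil genes to 3.48 to 13.4 FPKM and the 10 endothelial genes to 2.45 to 11.4 FPKM. Of these 4 lists, 3, 1, 0 and 0 genes were both highest in day 14 replicate 3 and lowest in day 14 replicate 2, and the median log2 fold changes were 0.60, -0.65, -0.44 and 0.81. The 11 erythroid and platelet genes summed to 44.9 to 126 FPKM with the highest value in day 14 replicate 2, mostly haemoglobin, and 1 of them shared that order (median log2 fold change 0.10).

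As lists, OB and cartilage genes ran largely the other way, with exceptions among single genes. The mean log2(FPKM + 0.1) of the 10 OB genes was 10.27, 10.40 and 9.41 on day 10 and 8.66, 9.95 and 7.94 on day 14, with the lowest value in day 14 replicate 3. *Sp7*, a transcription factor needed for OBs, was at 73.7, 51.1 and 40.1 FPKM on day 10, against 9.79, 27.9 and 4.09 FPKM on day 14, and *Ibsp* (bone sialoprotein) was at 15632 FPKM in day 14 replicate 2 and at 1293 FPKM in replicate 3. *Sparc*, among the most abundant OB genes, was lowest in day 10 replicate 3 at 10661 FPKM, with 10917 and 10848 FPKM in day 14 replicates 1 and 3. The mean log2(FPKM + 0.1) of the 10 cartilage genes was 4.26 to 5.09 on day 10 and 2.42, 5.42 and 2.14 on day 14. *Matn3* departed from this, at 10.9 FPKM in day 14 replicate 3 against 6.80 to 8.82 FPKM on day 10. Over the 6 samples, the median r with the mean profile of the 10 myeloid genes was -0.68 for the OB genes and -0.87 for the 9 cartilage genes with a mean of at least 1 FPKM. Between the days the median log2 fold change was -1.06 for the OB genes and -1.44 for the cartilage genes. On day 14, all 10 OB genes and 8 of the 10 cartilage genes had a lower mean log2 level, and *Sox9* and *Matn3* a higher one. By the means of these lists, the sample with the most myeloid RNA was thus the sample with the least OB and cartilage RNA per fragment mapped. As FPKM are shares of a fixed total, a rise of one part of the RNA and a fall of another cannot be told apart.

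**Figure D4:**
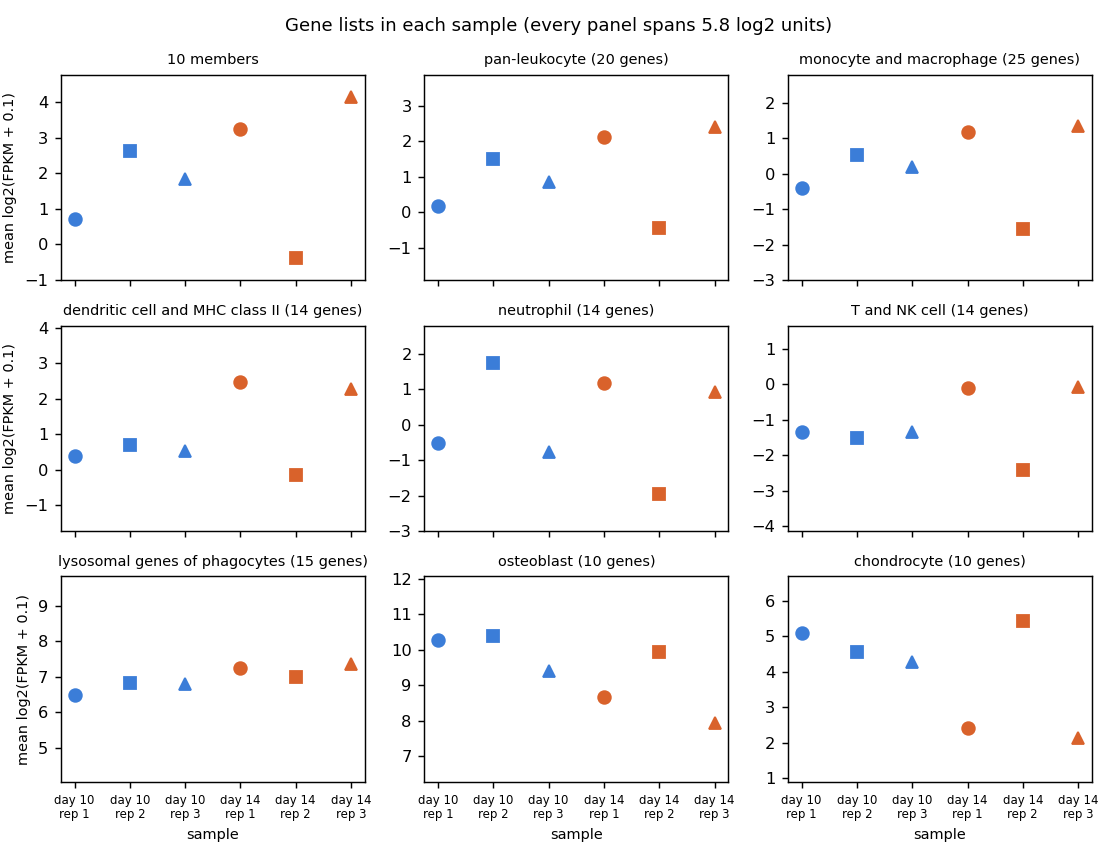
Mean log2(FPKM + 0.1) of the 10 myeloid genes and of 8 marker lists in each sample, with day 10 in blue and day 14 in orange and replicates 1, 2 and 3 as circles, squares and triangles. The macrophage and pan-leukocyte lists repeat the order of the 10 genes, the neutrophil list is highest in day 10 replicate 2, and the OB and cartilage lists are lowest in day 14 replicate 3.

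Among genes that are not members and had a mean of at least 1 FPKM, 10 lay nearest to the mean log2 profile of the 10 genes by Pearson's r over the 6 samples. In order they were *Itgb2*, *Supt3h*, *Itgam*, *Coro1a*, *Zkscan1*, *Cntfr*, *Cd48*, *Ms4a6d*, *C1qa* and *Lilrb4*, with r from 0.9996 to 0.977. Most are genes of white blood cells, such as *Itgam*, the alpha chain that joins *Itgb2* in the integrin MAC-1, but *Supt3h* (a transcription cofactor), *Zkscan1* (a zinc finger protein) and *Cntfr* (the receptor of ciliary neurotrophic factor) are not markers of such cells. With 6 points, 146 of 11153 genes reached an r over 0.9. These included 9 of the 13 monocyte and macrophage genes and 6 of the 11 pan-leukocyte genes that had a mean of at least 1 FPKM. Some low genes, such as *Itgam*, reach that mean only through samples in which the members are also high. The lists were also chosen with earlier results known, so nothing is read from these counts. Genes least like the profile included *Hes1*, *Gm2115*, *Herpud1* and *Fancc*, with r from -0.99 to -0.97. *Hes1*, a transcription factor downstream of Notch, was at 66.1, 50.1 and 52.2 FPKM on day 10, against 37.8, 84.7 and 32.0 FPKM on day 14.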

How the data were processed

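RNA-seq was performed on ECFP+ OBs of 3 replicates of day 10 and 3 of day 14 (SMART-Seq cDNA, sheared, single-end reads of 75 bases). Per the labels and the methods of the study, the authors used TopHat 2.0.13 with Bowtie2 2.2.3 for mapping (genome build mm10), SAMtools 0.1.19, and Cufflinks 2.2.1 for FPKM. The deposited FPKM, 1 file per sample, were used without further scaling. The annotation is not given in the sources used here. Cufflinks divides reads that fit several copies of a gene, which bears on *Lyz1* and *Lyz2*, and the kit does not mark strand. In 1 file 25 symbols had been turned into dates and were restored by position.

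The members and the marker lists were chosen with earlier results of these data known. Depth was estimated from genes with 1 transcript, whose low FPKM are multiples of the value of 1 read. Of 1977 such genes, 423 to 719 per sample had a detected value of no more than 0.3 FPKM and were used. Between 74.9% and 79.7% of the values used lay no more than 0.1 from a whole read number. The depth was the one that made this share largest, so the share is not a separate check. The reads per gene are therefore estimates, assume fragments of 200 bases, and were not used for a count test. At this depth, 3 reads on a transcript of 1 kilobase equal 0.389 to 0.666 FPKM, which covers counting error only.

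Days were compared with limma 3.58.1 (R 4.3.3, mean-variance trend, day as the only term) on log2(FPKM + 0.1) for the 19526 genes with a mean above 0.1 FPKM, with Benjamini-Hochberg adjustment over all of them. A fold change of low genes on this scale depends on the pseudocount in either direction. With 0.01 in place of 0.1, that of *Aif1* went from 1.31 to 2.34 and that of *Lyz1* from 1.10 to 0.275. The fit was tested on simulated data. Other pseudocounts, filters, scalings, no trend, the replicate number as a block and leaving out each sample were tried. Named genes were the members, the 3 most abundant genes of each list and genes of a list that pass the test, the 10 genes most and the 5 least like the mean profile of the members (1 of these is not reported here), and genes given as defining markers or partners of members, which were chosen after their values were seen. Genes named as exceptions within their list (*Mertk*, *Matn3* and *Sox9*) were also chosen after their values were seen. Older symbols were matched through RefSeq synonyms, and gene positions and transcripts were taken from GENCODE vM21. The authors' replicates are labelled biological, and the p-values set the day difference against the spread between samples of the same titled day. For day 14 that spread includes samples described as day 14, day 15 and day 16.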

Additional observations from a re-analysis of the deposited data

How the results depend on the processing

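With all 6 samples, 0 of the 10 myeloid genes were called under every alternative pseudocount, filter, scaling and trend tried, and the lowest adjusted p of a member ran from 0.513 to 0.780 over those and the replicate block. With a replicate block the lowest was 0.648, 0 members and 2 genes in all were called, compared with 3 genes in the test reported. Across genes, the deviations of same-numbered samples from the means of their days had an r of 0.058, -0.0058 and 0.089 for replicates 1, 2 and 3. The labels do not say whether same-numbered samples were paired, and a low r across genes cannot exclude a pairing. With a pseudocount of 1, the log2 fold change of *Csf1r* was 0.0016 and that of *Fcer1g* was 0.077, both turned from below 0, and the median log2 ratio of the highest to the lowest sample was 3.14 in place of 5.03. The count of 7 genes that were highest in day 14 replicate 3 and lowest in replicate 2 was 7 under median-of-ratios scaling, and it was 6 under upper-quartile scaling and 6 with *Lyz1* and *Lyz2* summed as 1 gene. With a minimum mean of 1 FPKM, *Aif1* was not tested.

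Leaving out single samples moved many values. The genes called in all ranged from 3 to 76, the most without day 14 replicate 2, and the median log2 fold change of the members from -0.37 without day 14 replicate 3 to 2.02 without day 14 replicate 2. The log2 fold change of *Lyz2* ranged from -0.58 to 2.49, that of *Lyz1* from -0.068 to 2.76, that of *Cd68* from -0.39 to 1.31, that of *Tyrobp* from -0.57 to 1.94, that of *Laptm5* from -0.36 to 2.29, that of *Csf1r* from -0.62 to 0.70, that of *Fcer1g* from -2.09 to 1.76 and that of *Aif1* from 0.33 to 2.12. A pseudocount of 0.01 moved *Aif1* further, to 2.34. Without day 14 replicate 2, *Cybb*, *Fcgr2b*, *H2-Aa* and *H2-Eb1* were called as higher on day 14 (limma adjusted p of 0.0351, 0.0329, 0.0235 and 0.0147), and 3 OB genes (*Dlx5*, *Sp7* and *Alpl*) and 5 cartilage genes (*Col2a1*, *Acan*, *Col9a1*, *Col9a2* and *Comp*) as lower. In the sample left out, each gene called as higher had its lowest value. Each gene called as lower lay above the other day 14 samples there. These calls are therefore a description, beside 0.386% of all genes then tested. The causes were not tested. Values under about 3 estimated reads, which include *Aif1* and *Lyz1* in several samples, limit the order of the lower samples.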
